A study of Homo sapiens and Mus musculus with 47 samples.

Results

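The genes described here are the long noncoding RNA genes of the antisense class whose names end in -AS1. Members were selected on their level: the annotation type had to be antisense, and the raw count had to average 100 or more over the 11 RNA-seq libraries of HEK293T cells given antisense oligonucleotides (ASOs). Of 57820 genes in the table, 606 were -AS1 genes of this type, 55 reached the threshold, and 54 were kept after SETD5-AS1, an ASO target, was set aside. The members just inside the threshold were HOXB-AS1 with a mean of 100.2 counts, MORF4L2-AS1 with 102.3 and A1BG-AS1 with 104.8. Just outside it were PTOV1-AS1 with 98.18, DLX6-AS1 with 97.18 and NR2F2-AS1 with 96.64. The highest means belonged to HNRNPU-AS1 (1776 counts), FGD5-AS1 (960.3), TP73-AS1 (909.6), ENTPD1-AS1 (863.5) and KIAA1984-AS1 (613.9). These means are raw counts that chose the members and are given as a description. The mean ran over all 11 libraries, of which 8 received a targeting ASO, so a gene raised by those ASOs could enter more easily. The control ASO group alone had a mean of at least 100 counts for 38 of the 54 members.

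The study maps RNAs that lie close to chosen chromatin marks with Chrom-seq and follows some of them by knockdown. In HCT116 cells, a human colorectal cancer line, the H3K4me3 reader TAF3 carried a GCN4 peptide array, to which an antibody fragment brought the peroxidase APEX2. After 48 h of expression and 30 min with 500 µM biotin-aniline, H2O2 at 1 mM for 1 min let APEX2 biotinylate RNA near the mark, and control cells had the array without a reader. RNA-seq was made from HEK293T cells, a human embryonic kidney line, in 2 sets. In the first set, HEK293T cells labelled CBX7, after the reader of H3K27me3, were compared with cells labelled Control. The label of these cells is Control alone, and the study describes the transcriptome set beside that of the CBX7 reader as one of untreated HEK293T cells. The labels list the same expression and labelling steps as in HCT116 for every library used, the Control and ASO libraries included. That differs from untreated. If the Control cells were untreated, transfection, any labelling and the reader differ together between these groups, and their parts cannot be told apart. The second set received an ASO against SETD5-AS1, LINC00641 or LINC00662, or a control ASO labelled NC. Groups held 3 libraries each, or 2 in the case of the LINC00641 ASO, and all libraries of a group came from 1 cell line. The labels do not name separate cultures, although the study calls the replicates of Chrom-seq and of the CBX7 transcriptomes independent, and for the ASO libraries p-values measure a spread that may be technical.

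An antisense lncRNA is transcribed from the strand opposite a neighbouring gene, and the suffix AS1 marks the antisense gene first named at that locus. Many start near the promoter of the sense gene and run away from it, whereas others meet it tail to tail or lie wholly within it. Such RNAs can act on the sense gene in cis, act elsewhere, or be by-products of an active promoter. ASOs of the gapmer kind pair with a nuclear RNA and direct its cleavage by RNase H1, which is why they are used against nuclear lncRNAs.

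The members lay on 21 chromosomes, with spans between 1.17 and 380 kb and a median of 18.6 kb. A protein-coding gene on the opposite strand overlapped 52 of them, and the paired gene carried the member's own name in 49 cases. In 29 pairs the genes overlapped at their 5′ ends, in 15 at their 3′ ends, in 4 the AS1 gene lay inside the sense gene and in 4 the sense gene lay inside the AS1 gene. TMCC1-AS1 and FOXD2-AS1 did not overlap their sense genes, which lay 295 and 1376 bases away. For 6 members, TFAP2A-AS1, VPS9D1-AS1, MFI2-AS1 and KIAA1984-AS1 among them, the whole span lay under genes of the other strand, and 19 members overlapped another gene on their own strand. The strand setting of the counting is not given in the sources used here. FEZF1-AS1, which lies inside FEZF1, had a mean of 131.5 counts over the ASO libraries against 12.18 for FEZF1, so most of its reads were not also counted for the gene around it.

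The ASOs themselves are shown first, because 3 members share sequence with 1 of them. The study's oligonucleotide list names 3 ASOs against LINC00662, and the third pairs fully with an exon of LINC00662 at hg19 chr19:28281738-28281757, minus strand. A run of 18 of its 20 bases also pairs with an intron of CKMT2-AS1 at chr5:80557149-80557168, minus strand, of TMEM161B-AS1 at chr5:87630724-87630743, plus strand, and of UBA6-AS1 at chr4:68835151-68835170, plus strand. CKMT2-AS1 holds another site, with a run of 17 bases, at chr5:80576576-80576595. Each site is written as the RNA strand reads, 5′ to 3′, and capitals mark the bases of the unbroken run that pairs with the ASO.
LINC00662-ASO-3: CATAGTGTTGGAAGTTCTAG
LINC00662 exon: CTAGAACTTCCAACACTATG
CKMT2-AS1, TMEM161B-AS1 and UBA6-AS1 introns: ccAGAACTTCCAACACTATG
CKMT2-AS1, other intron site: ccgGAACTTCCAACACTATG
The shortest run searched was 16 bases. Apart from these sites, a member matched an ASO in 2 cases: an intron of LENG8-AS1 with 17 bases of an ASO against LINC00641, and an intron of MKLN1-AS1 with 16 bases of the second ASO against LINC00662. These matches were looked for after the expression values had been seen.

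Total counts ran from 14213105 to 17445889 in the HCT116 libraries, from 11619315 to 15023098 in the ASO libraries, and from 8258859 to 10995383 with CBX7 against 12109803 to 15330874 in its control. Levels are given as CPM, counts relative to the library total after scaling by TMM factors. Epithelial markers were high in HCT116, with EPCAM at 317 to 356 CPM and KRT19 at 1470 to 2020 CPM, although VIL1 reached at most 0.637 CPM and CEACAM5 was at 0. HEK293T libraries held the neurofilament gene NEFM at 176 to 404 CPM and LHX1 at 8.27 to 14.9 CPM, against at most 0.242 and 1.59 CPM in HCT116. The renal markers PAX8 and PAX2 of the same list were not higher in HEK293T. PAX8 reached at most 0.261 CPM there, against 7.24 to 12.4 CPM in HCT116. PAX2 ran from 5.04 to 10.9 CPM in HEK293T and from 8.92 to 13.4 CPM in HCT116. Of the 5 markers of other cell types in the table, PTPRC, CD3E, COL1A2 and ALB reached at most 0.693 CPM in any library, and COL1A1 ran from 28.2 to 72.3 CPM. In bulk RNA, fewer cells with a transcript and less of it per cell cannot be told apart. Among the ASO targets, SETD5-AS1 had 52.88, 53.44 and 53.56 CPM with the control ASO and 4.732, 4.24 and 3.972 CPM with its own ASO. It also had 29.01 and 30.6 CPM with the LINC00641 ASO and 29.33, 28.15 and 28.14 CPM with the LINC00662 ASO. With their own ASOs, LINC00641 went from 43.11, 38.5 and 41.42 CPM to 0.916 and 1.926 CPM, and LINC00662 from 12.48, 14.34 and 13.3 CPM to 1.973, 1.23 and 1.531 CPM.

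The calls below need an adjusted p under 0.05, from edgeR's quasi-likelihood test over all tested genes, and a log2 fold change whose size is 0.75 or more. Of the 54 members, 31 (57.4%) were called in at least 1 of the 5 comparisons with a control and 23 in none, beside 40.5% of the 21274 genes tested in any of them. With at least 1 ASO 22 members (40.7%) were called, near the 37.5% of all genes tested there. In every called case the libraries of the groups did not overlap. A call already favours groups that lie apart, so this adds no support to it. The share among all called genes was not computed.

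**Figure D1:**
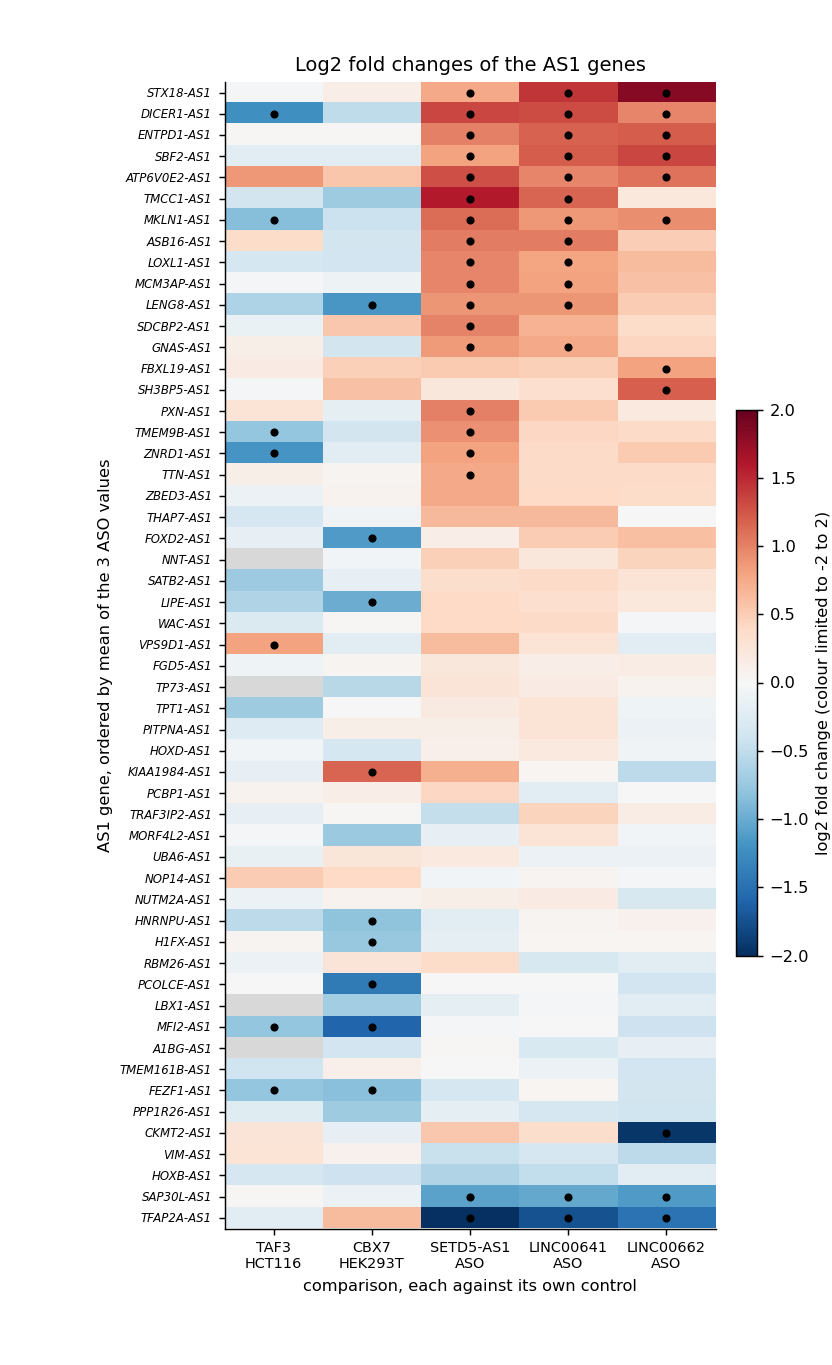
Log2 fold changes of the 54 AS1 genes (rows, ordered by the mean of the ASO values) in 5 comparisons with a control (columns), where red is higher, blue is lower, grey was not tested and black dots mark called genes. Most dots in the ASO columns sit on red, whereas 6 of 7 dots in the TAF3 column and 8 of 9 in the CBX7 column sit on blue; the ASO columns share their control libraries.

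The TAF3 comparison in HCT116 asks which AS1 RNAs are recovered more, or less, with the H3K4me3 reader than without a reader. The HCT116 libraries hold captured RNA only. Recovery near the mark and a change of transcript level with TAF3 therefore cannot be told apart. Few members moved. VPS9D1-AS1 was higher with TAF3, and DICER1-AS1, ZNRD1-AS1, MKLN1-AS1, FEZF1-AS1, TMEM9B-AS1 and MFI2-AS1 were lower. Among 50 members tested, 1 (2%) was higher against a background of 3.34% of 18731 tested genes, and 6 (12%) were lower against 3.28%. The median log2 fold change was -0.141 over the members and -0.00669 over all tested genes. Among 120 other antisense genes that passed the same count threshold and were tested, 5 were higher (4.17%) and 8 lower (6.67%), with a median of -0.0855. The background also takes genes with far fewer counts. TP73-AS1, NNT-AS1, LBX1-AS1 and A1BG-AS1 had 0 to 4 counts per HCT116 library and were not tested, so for these 4 a difference was not detectable at this depth.

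VPS9D1-AS1 lies inside VPS9D1, which encodes a VPS9 domain protein. It had 11.96, 12.99 and 13.23 CPM in the control and 18.75, 23.19 and 24.88 CPM with TAF3. Every TAF3 library was above every control library. The log2 fold change was 0.80 (standard error 0.111, adjusted p 1.22e-07 in edgeR's quasi-likelihood test, n = 3 each). Without TAF3 replicate 3 it was 0.72, under the fold threshold. VPS9D1 itself had a log2 fold change of 0.50 and was not called, and the whole AS1 span lies under it.

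DICER1-AS1, which starts beside the promoter of the gene for the microRNA-processing enzyme Dicer, had 12.08, 11.26 and 10.65 CPM in the control. With TAF3 it had 4.778, 4.714 and 5.059 CPM. All TAF3 values were well below all control values, with a log2 fold change of -1.23 (standard error 0.146, edgeR adjusted p 4.83e-09). DICER1, which shares 366 bases with it, had a log2 fold change of 0.05 and 82.69 to 89.07 CPM in the control against 84.28 to 95.51 CPM with TAF3.

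MKLN1-AS1, in the same head-to-head layout with the muskelin gene MKLN1, had 24.54, 24.66 and 23.88 CPM in the control and 12.34, 13.5 and 14.83 CPM with TAF3. The groups did not overlap, and the log2 fold change was -0.85 (standard error 0.102, edgeR adjusted p 5.96e-09), while MKLN1 had -0.24 and was not called. ZNRD1-AS1 was low throughout, at 2.454, 3.291 and 3.511 CPM in the control and 0.9678, 1.593 and 1.546 CPM with TAF3, and its log2 fold change of -1.18 had a standard error of 0.284. The remaining falls were close to the fold threshold. FEZF1-AS1 fell by 0.78, TMEM9B-AS1 by 0.77 and MFI2-AS1 by 0.77 on the log2 scale. Each of these lost its call when certain single libraries were left out, and MFI2-AS1 then came to -0.51 with an edgeR adjusted p of 0.0993 without Control replicate 1. Its values were 6.625, 3.869 and 4.448 CPM in the control and 2.54, 2.612 and 3.654 CPM with TAF3.

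Of the AS1 genes for which the study lists PCR primers, STX18-AS1, NUTM2A-AS1 and MCM3AP-AS1 are members. With TAF3 in HCT116, 0 of these 3 were called by edgeR or DESeq2, and 0 had an unadjusted p under 0.05. The study's PCR of RNA precipitated with an H3K4me3 antibody used H9 and HEK293T cells. The cell line and the assay differ, so these values do not bear on it. STX18-AS1 had 12.45, 13.57 and 12.06 CPM in the control and 13.37, 11.47 and 12.3 CPM with TAF3, NUTM2A-AS1 had a log2 fold change of -0.12 and MCM3AP-AS1 of -0.03. GMDS-AS1 is annotated as lincRNA, and DDX11-AS1 had a mean of 70.64 counts, so neither was a member. The 5 members with the highest mean counts were not called with TAF3 either, except that TP73-AS1 was not tested. HNRNPU-AS1 was nearest to a call, at 35.33, 36.72 and 37.8 CPM in the control and 28.55, 24.91 and 23.26 CPM with TAF3, a log2 fold change of -0.52.

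By layout, the calls with TAF3 fell on 3 of 4 tested members inside their sense gene (1 higher, 2 lower) and on 4 of 26 with overlapping 5′ ends, all lower. Of 14 with overlapping 3′ ends, 0 were called by edgeR or by DESeq2, and 5 had an unadjusted edgeR p under 0.05. The 3 calls inside a sense gene, VPS9D1-AS1, FEZF1-AS1 and MFI2-AS1, were each lost when certain single libraries were left out. These counts are small and their differences were not tested. Among 46 tested sense genes, only VIM, the gene for the intermediate filament protein vimentin, was called higher, with a log2 fold change of 0.76. By edgeR or DESeq2, 0 sense genes were lower, with 12 at an unadjusted edgeR p under 0.05, so 0 AS1 genes were called together with their sense gene.

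**Figure D2:**
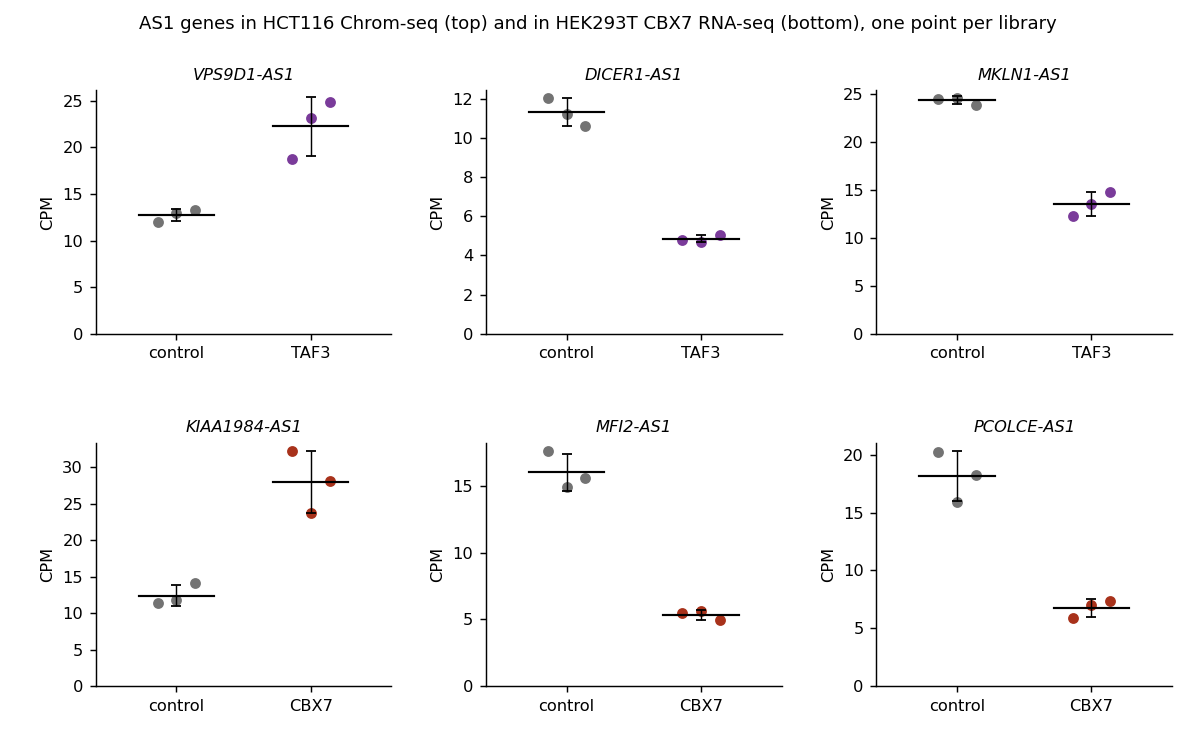
CPM of 6 AS1 genes per library, for HCT116 Chrom-seq with TAF3 and its control (upper row) and for HEK293T RNA-seq with CBX7 and its control (lower row). Points are libraries, horizontal bars are means and error bars are SD (n = 3). In each panel the groups do not overlap; VPS9D1-AS1 and KIAA1984-AS1 are above their controls and the other genes are below.

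The CBX7 comparison asks which transcripts differ in polyadenylated RNA of HEK293T cells that express the H3K27me3 reader. MFI2-AS1, PCOLCE-AS1, LENG8-AS1, FOXD2-AS1, LIPE-AS1, FEZF1-AS1, HNRNPU-AS1 and H1FX-AS1 were lower, and KIAA1984-AS1 was higher. All 54 members were tested. The 8 lower members (14.8%) stand beside a background of 3.48% of 18204 tested genes, and the 1 higher member (1.85%) beside 4.17%. The median log2 fold change was -0.161 over the members and -0.0122 over all tested genes. Of 125 other antisense genes, 10 were higher (8%) and 16 lower (12.8%), with a median of -0.0737. These passed the same count threshold as the members, and their share lower is near that of the members. The background also takes genes with far fewer counts, so it is not a set of like level. The CBX7 libraries were also the shallowest of those used. The HEK293T marker NEFM was lower with CBX7, by a log2 fold change of -1.03, and its part in these results was not tested.

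MFI2-AS1 lies inside MFI2, the gene for melanotransferrin. It had 17.59, 14.95 and 15.57 CPM in the control and 5.514, 5.599 and 4.929 CPM with CBX7. The groups were far apart, and the log2 fold change of -1.58 was the largest fall among the members (standard error 0.146, edgeR adjusted p 3.3e-06). PCOLCE-AS1, opposite the gene for a procollagen C-proteinase enhancer, had 20.24, 15.95 and 18.22 CPM in the control and 5.873, 7.044 and 7.345 CPM with CBX7, a log2 fold change of -1.41.

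LENG8-AS1 had 13.94, 10.11 and 11.7 CPM in the control and 6.353, 5.057 and 4.542 CPM with CBX7 (log2 fold change -1.17). FOXD2-AS1, upstream of a forkhead transcription factor gene, had 13.36, 9.754 and 11.76 CPM in the control and 4.315, 7.224 and 4.059 CPM with CBX7 (-1.14). No CBX7 library of either gene reached the lowest control library. LIPE-AS1 fell by 0.99 and FEZF1-AS1 by 0.83 on the log2 scale. HNRNPU-AS1, the member with the most counts, had 147.6, 112.2 and 144.8 CPM in the control and 87.26, 75.4 and 68.71 CPM with CBX7, a log2 fold change of -0.81. Without CBX7 replicate 3, 5 members in place of 8 were lower.

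KIAA1984-AS1 went the other way. Its control values were 11.37, 11.82 and 14.09 CPM and its CBX7 values 32.24, 23.75 and 28.12 CPM, with no overlap (log2 fold change 1.16, standard error 0.133, edgeR adjusted p 1.74e-05). Its whole span lies under genes of the other strand, and the annotated sense gene KIAA1984 had a mean of 0 counts in the ASO libraries. Without CBX7 replicate 2 the number of higher members was 2, and without Control replicate 3 it was 3.

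In 3 pairs the sense gene was lower with CBX7 together with the AS1 gene. H1FX, which encodes a linker histone, had 79.39, 85.86 and 57.77 CPM in the control and 39.07, 46.69 and 35.85 CPM with CBX7. H1FX-AS1 had 31.03, 28.55 and 29.66 CPM and 17.98, 18.6 and 16.24 CPM. Their log2 fold changes were -0.87 and -0.76. PCOLCE had -0.81 and LENG8 -0.86. The 5′ ends overlap in these 3 pairs. FEZF1-AS1 and MFI2-AS1 were lower both with CBX7 in HEK293T and with TAF3 in HCT116. These were 2 of the 6 members lower with TAF3 and 2 of the 8 lower with CBX7. Of all tested members, 12% were lower with TAF3 and 14.8% with CBX7. Both genes lost the TAF3 call when certain single libraries were left out.

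Each ASO comparison asks how the transcriptome of HEK293T cells differs after an ASO against 1 lncRNA from that after the control ASO. The 3 comparisons share the 3 control libraries, so a control value that is high or low by chance enters all of them, and their values are given side by side. With the SETD5-AS1 ASO, 17 members were higher (31.5%, background 12.9% of 18544 genes) and 2 lower (3.7%, background 11.5%). The LINC00641 ASO gave 12 higher (22.2%, background 11% of 18503 genes) and 2 lower (3.7%, background 11.5%). For the LINC00662 ASO, 8 were higher (14.8%, background 11.6% of 18562 genes) and 3 lower (5.56%, background 13.3%). The median log2 fold change of the members was 0.376, 0.309 and 0.0824 in that order, beside 0.028, 0.00424 and 0.00132 over all tested genes. The same libraries set the mean count that chose the members: of the higher members, 6 of 17, 5 of 12 and 1 of 8 had a mean of at least 100 counts in the control ASO group itself. Nothing is read from these shares about AS1 genes as a class.

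The 125 other antisense genes that passed the same count threshold gave 19 higher (15.2%) and 13 lower (10.4%), 14 (11.2%) and 14 (11.2%), and 11 (8.8%) and 19 (15.2%). Their medians were 0.0547, 0.0379 and -0.0458. Gene span moved with the result. With the SETD5-AS1 ASO, the median over all tested genes was -0.136 at spans up to 30 kb and 0.188 at longer spans, and the members' medians were 0.223 and 0.542 in those ranges. The part of gene length in these values was not tested. Marker genes moved as well. KRT8 had log2 fold changes of -1.44 and -1.14 with the SETD5-AS1 and LINC00641 ASOs, where EPCAM was also lower. VIL1 was called lower there too, but it reached at most 0.782 CPM in HEK293T. CDH1 of the same list went the other way with these ASOs, at 0.67 and 0.49, short of the fold threshold. With the LINC00662 ASO it had 1.15. NEFM and COL1A1 had 0.76 and -0.89 with the LINC00641 ASO. The part of these markers in the results was not tested. With library size alone in place of TMM scaling, the median of all genes moved by 0.138 in the SETD5-AS1 comparison, and 3194 genes were higher and 1611 lower in place of 2390 and 2135.

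Higher with all 3 targeting ASOs were STX18-AS1, SBF2-AS1, ENTPD1-AS1, DICER1-AS1, ATP6V0E2-AS1 and MKLN1-AS1. STX18-AS1, which runs away from the promoter of the syntaxin gene STX18, had 6.435, 3.997 and 5.841 CPM with the control ASO. It had 8.052, 9.389 and 9.929 CPM with the SETD5-AS1 ASO, 16.64 and 12.48 CPM with the LINC00641 ASO, and 20.06, 18.17 and 16.76 CPM with the LINC00662 ASO. No targeting library fell into the control range, and the libraries with the LINC00662 ASO were the highest. The log2 fold changes were 0.75, 1.43 and 1.82, with edgeR adjusted p of 2.23e-03, 3.22e-06 and 1.71e-10.

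ENTPD1-AS1 meets ENTPD1, the gene for the ectonucleotidase CD39, tail to tail. It had 35.43, 39.02 and 31.63 CPM with the control ASO, 71.56, 71.56 and 69.66 CPM with the SETD5-AS1 ASO, 79.16 and 79.8 CPM with the LINC00641 ASO, and 80.24, 78.57 and 75.15 CPM with the LINC00662 ASO. The targeting libraries lay close together and all above the control, with log2 fold changes of 1.01, 1.18 and 1.21. ENTPD1 itself had a mean of 1.636 counts over the ASO libraries.

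DICER1-AS1 had 5.505, 5.388 and 6.29 CPM with the control ASO, 12.45, 14.99 and 15.49 CPM with the SETD5-AS1 ASO, 10.92 and 16.9 CPM with the LINC00641 ASO, and 8.55, 11.27 and 12.25 CPM with the LINC00662 ASO. Its log2 fold changes of 1.33, 1.30 and 0.97 went along with -0.37, -0.38 and 0.00 for DICER1, which was not called. SBF2-AS1 had log2 fold changes of 0.81, 1.21 and 1.33, ATP6V0E2-AS1 of 1.29, 0.97 and 1.08, and MKLN1-AS1 of 1.12, 0.87 and 0.93. DICER1-AS1 and MKLN1-AS1, higher here, were lower in the TAF3 capture of HCT116. Of the 6 members lower with TAF3, 4 were higher with the ASO against SETD5-AS1, 2 with that against LINC00641 and 2 with that against LINC00662. Beside these counts, 31.5%, 22.2% and 14.8% of all members were higher with these ASOs. TMEM9B-AS1, 1 of the 4, lost its TAF3 call when certain single libraries were left out. A link between the comparisons was not tested.

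TFAP2A-AS1 and SAP30L-AS1 were lower with all 3. TFAP2A-AS1 lies inside TFAP2A, the gene for the transcription factor AP-2 alpha. It had 50.24, 53.35 and 51.94 CPM with the control ASO, 14.28, 13.86 and 9.929 CPM with the SETD5-AS1 ASO, 13.97 and 16.4 CPM with the LINC00641 ASO, and 18.48, 16.47 and 18.44 CPM with the LINC00662 ASO. Every targeting library was far below the control, with log2 fold changes of -2.02, -1.75 and -1.47 (edgeR adjusted p 2.88e-10, 1.5e-10 and 3.68e-13). TFAP2A moved with it, from 251.7, 249 and 241.6 CPM with the control ASO to 90.81, 89.58 and 85.87 CPM with the SETD5-AS1 ASO, and its log2 fold changes were -1.47, -1.34 and -1.10.

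SAP30L-AS1 had 16.44, 12.95 and 16.98 CPM with the control ASO, 5.977, 6.588 and 9.373 CPM with the SETD5-AS1 ASO, 7.175 and 7.916 CPM with the LINC00641 ASO, and 6.446, 7.038 and 6.56 CPM with the LINC00662 ASO. The log2 fold changes were -1.07, -1.02 and -1.14. GALNT10, the gene for a mucin-type glycosyltransferase that overlaps it at the 3′ end, went up with the SETD5-AS1 ASO, from 13.03, 9.211 and 10.6 CPM to 23.33, 24.16 and 24.23 CPM (log2 fold change 1.13).

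**Figure D3:**
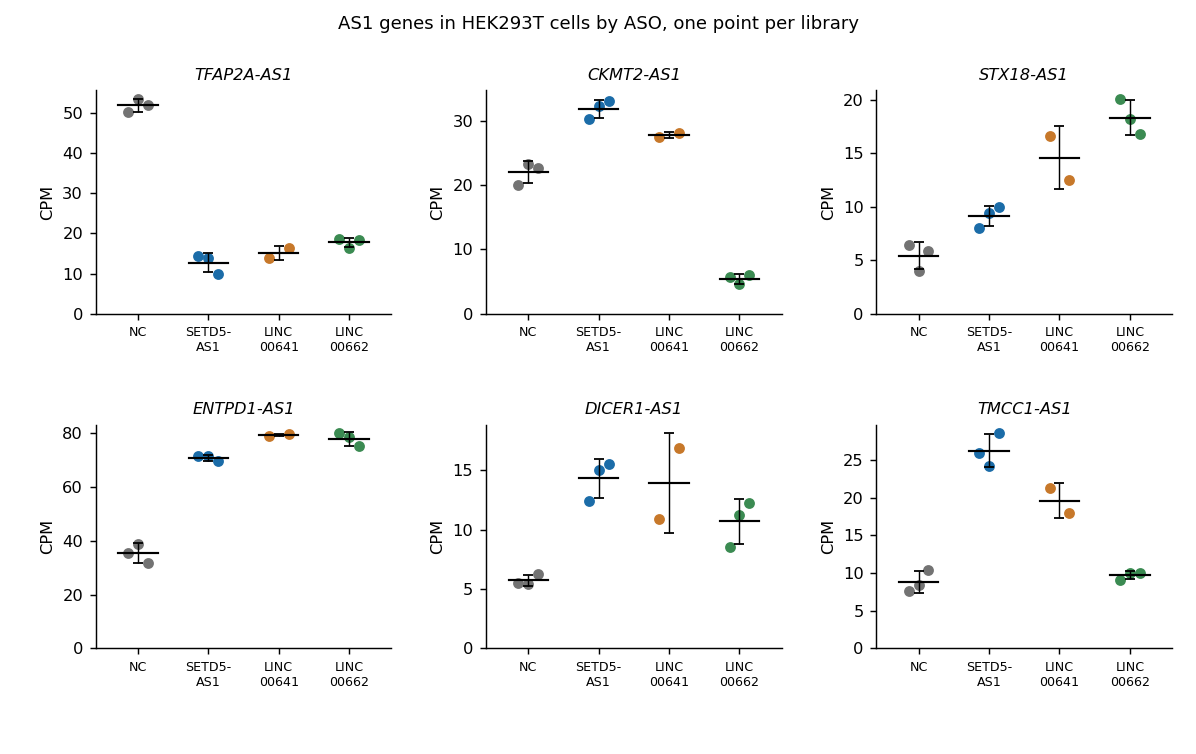
CPM of 6 AS1 genes in HEK293T libraries with the control ASO (NC) and with ASOs against SETD5-AS1, LINC00641 and LINC00662. Points are libraries, horizontal bars are means and error bars are SD (n = 3, and n = 2 for LINC00641). TFAP2A-AS1 is lower with every targeting ASO, CKMT2-AS1 is lower with the LINC00662 ASO than with the other ASOs, and TMCC1-AS1 is higher with the SETD5-AS1 and LINC00641 ASOs.

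Some members separated the ASOs, and the direct contrasts between targeting ASOs, fitted over the 4 groups, do not use the difference from the control. LINC00662 minus SETD5-AS1 called 2 of the 54 members higher (background 2.51% of 18529 genes) and 5 lower (8.82%). LINC00662 minus LINC00641 called 1 higher (2.13%) and 2 lower (6.26%), and SETD5-AS1 minus LINC00641 called 0 higher (1.27%) and 1 lower (0.783%). These counts lie near the background, and nothing is read from them about AS1 genes as a class. Beside the 0 higher for SETD5-AS1 minus LINC00641, edgeR gave 11 members higher at an unadjusted p under 0.05, and DESeq2 called 0. TMCC1-AS1, which lies 295 bases from TMCC1, had 7.598, 8.429 and 10.42 CPM with the control ASO, 25.9, 24.23 and 28.52 CPM with the SETD5-AS1 ASO, 21.22 and 17.97 CPM with the LINC00641 ASO, and 9.077, 10.04 and 9.986 CPM with the LINC00662 ASO. The LINC00662 ASO libraries overlapped the control range and the others did not. The log2 fold changes were 1.58, 1.17 and 0.21, and the direct contrast of LINC00662 minus SETD5-AS1 was -1.43. SH3BP5-AS1 showed the other order, at 6.823, 7.647 and 6.829 CPM with the control ASO, 8.301, 8.178 and 8.261 CPM with the SETD5-AS1 ASO, 8.091 and 9.557 CPM with the LINC00641 ASO, and 16.51, 15.85 and 13.85 CPM with the LINC00662 ASO. Its sense gene SH3BP5, which encodes an SH3-domain binding protein, was higher with all 3, by log2 fold changes of 1.18, 0.87 and 1.06. ASB16-AS1 had log2 fold changes of 1.02 and 1.03 with the SETD5-AS1 and LINC00641 ASOs, and PXN-AS1 and SDCBP2-AS1 had 1.01 and 0.99 with the SETD5-AS1 ASO. LENG8-AS1, which holds a 17-base run of an ASO against LINC00641, was higher with that ASO, at a log2 fold change of 0.89, as it was with the SETD5-AS1 ASO, at 0.89.

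CKMT2-AS1, opposite the gene for mitochondrial creatine kinase 2, had the largest fall with the LINC00662 ASO. It had 20.08, 23.29 and 22.73 CPM with the control ASO, 30.3, 32.33 and 33.04 CPM with the SETD5-AS1 ASO, 27.48 and 28.17 CPM with the LINC00641 ASO, and 5.722, 4.578 and 5.977 CPM with the LINC00662 ASO. Only the LINC00662 ASO libraries were below the control, and the other targeting libraries were above it. The log2 fold change was -1.95 (standard error 0.138, edgeR adjusted p 5.2e-12), against 0.54 and 0.35 with the other ASOs, which were under the fold threshold. CKMT2 was close to the detection limit, with 0.2326, 0.869 and 0.08986 CPM with the control ASO and 1.118, 1.503 and 0.4373 CPM with the LINC00662 ASO. These values overlapped, although the fitted log2 fold change of 1.43 passed the test with an edgeR adjusted p of 0.0499.

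This gene is a member with an 18-base match to the third LINC00662 ASO, shown above. TMEM161B-AS1, with the same run, had 39.23, 43.45 and 45.47 CPM with the control ASO and 31.77, 31.02 and 30.1 CPM with the LINC00662 ASO, below the control in all libraries. Its log2 fold change of -0.39 was under the fold threshold (edgeR adjusted p 4.37e-04). UBA6-AS1, also with the same run, had 12.02, 10.25 and 10.6 CPM with the control ASO and 10.98, 8.746 and 9.039 CPM with the LINC00662 ASO, which overlapped, and a log2 fold change of -0.12 (edgeR adjusted p 0.484). So 1 of the 3 members with the run was called lower, against 2 of 51 without it.

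Over all genes tested with the LINC00662 ASO, 1192 held a run of at least 18 bases of this ASO in their span, and 560 of them (47.0%) were lower, with a median log2 fold change of -0.775. Of 17370 genes without it, 11% were lower and the median was 0.0317. Genes with the run are long, and 26 of the 1192 spanned at most 30 kb. At spans of 30 to 100 kb, 67.1% of 237 genes with the run and 6.53% of 5178 without it were lower. With the SETD5-AS1 ASO, 4.95% of the genes with the run were lower and the median was 0.41, and with the LINC00641 ASO these values were 5.39% and 0.34. The comparisons share control libraries. The sources used here do not state whether the 3 ASOs against LINC00662 were given together, and the cause of the difference was not tested.

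**Figure D4:**
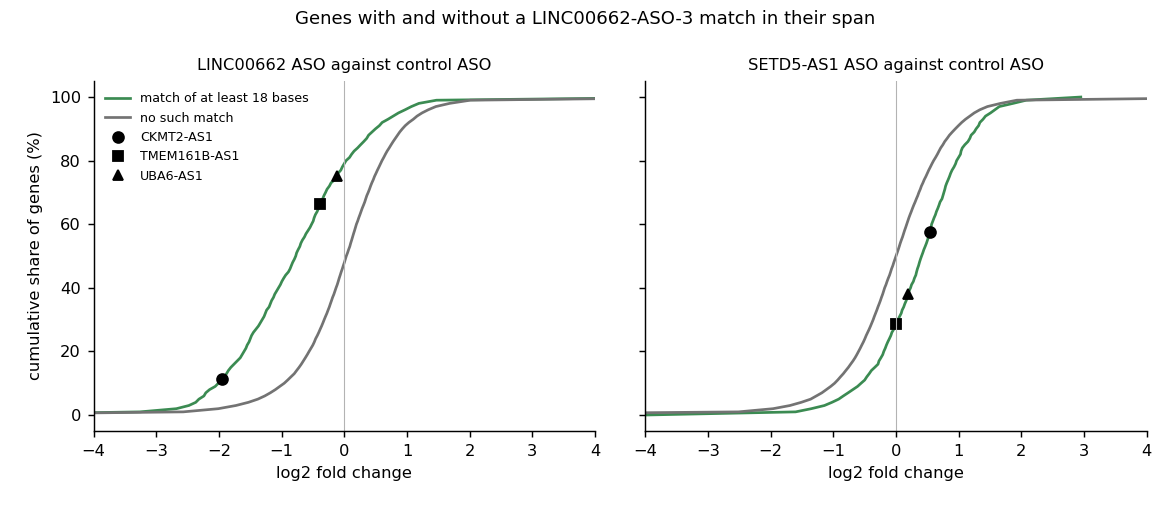
Cumulative share of tested genes (vertical axis, %) by log2 fold change (horizontal axis) for genes with a run of at least 18 bases pairing with the third LINC00662 ASO (green) and without (grey), in the LINC00662 and SETD5-AS1 ASO comparisons. With the LINC00662 ASO the green line lies left of the grey one (medians -0.775 and 0.0317), and with the SETD5-AS1 ASO it lies to the right; symbols mark the 3 AS1 genes with the run.

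With the SETD5-AS1 ASO 6 of 50 tested sense genes rose (12%) and 8 fell (16%), beside 12.9% and 11.5% of all genes. The LINC00641 ASO gave 2 higher (4%) and 8 lower (16%) of 50, beside 11% and 11.5%, and the LINC00662 ASO 5 (10.2%) and 8 (16.3%) of 49, beside 11.6% and 13.3%. In the SETD5-AS1 comparison the median log2 fold change of the sense genes was -0.181, beside 0.376 for their AS1 genes. Pearson's r between the log2 fold changes of the pairs was 0.294 over 45 pairs with TAF3, 0.301 over 49 with CBX7, and 0.18 over 50, 0.216 over 50 and 0.0207 over 49 with the ASOs in the same order. These are correlations across genes, which are not independent replicates, and the members of a pair come from the same libraries.

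Both genes of a pair were called in 12 cases over the 5 comparisons, 9 in the same direction and 3 in opposite directions. TFAP2A accounts for 3 of the former. With CBX7, 3 were in the same direction. With the SETD5-AS1, LINC00641 and LINC00662 ASOs, 3, 1 and 2 were, and 2, 0 and 1 went in opposite directions. The AS1 gene was called in 8 of 49 tested pairs with CBX7, and in 18 of 50, 13 of 50 and 10 of 49 with the ASOs. How many joint calls such separate calls alone would give was not computed, so nothing is read from the 12. SBF2-AS1 and SBF2, at log2 fold changes of 0.81 and 0.85, and LOXL1-AS1 and the lysyl oxidase gene LOXL1, at 0.97 and 0.94, were higher together with the SETD5-AS1 ASO. SH3BP5-AS1 and SH3BP5 were higher together with the LINC00662 ASO, at 1.19 and 1.06. TMEM9B-AS1 and TMEM9B moved apart with the SETD5-AS1 ASO. TMEM9B-AS1 had 7.443, 5.214 and 7.818 CPM with the control ASO and 15.19, 12.87 and 10.49 CPM with the SETD5-AS1 ASO, while TMEM9B had 24.73, 23.72 and 27.77 CPM and 10.29, 9.995 and 9.691 CPM. Their log2 fold changes were 0.92 and -1.34, with no overlap between groups for either gene. HOXB2, a homeobox gene paired with HOXB-AS1, fell by 2.17, 1.98 and 2.16 on the log2 scale, while HOXB-AS1 had -0.60, -0.50 and -0.21 and was not called.

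**Figure D5:**
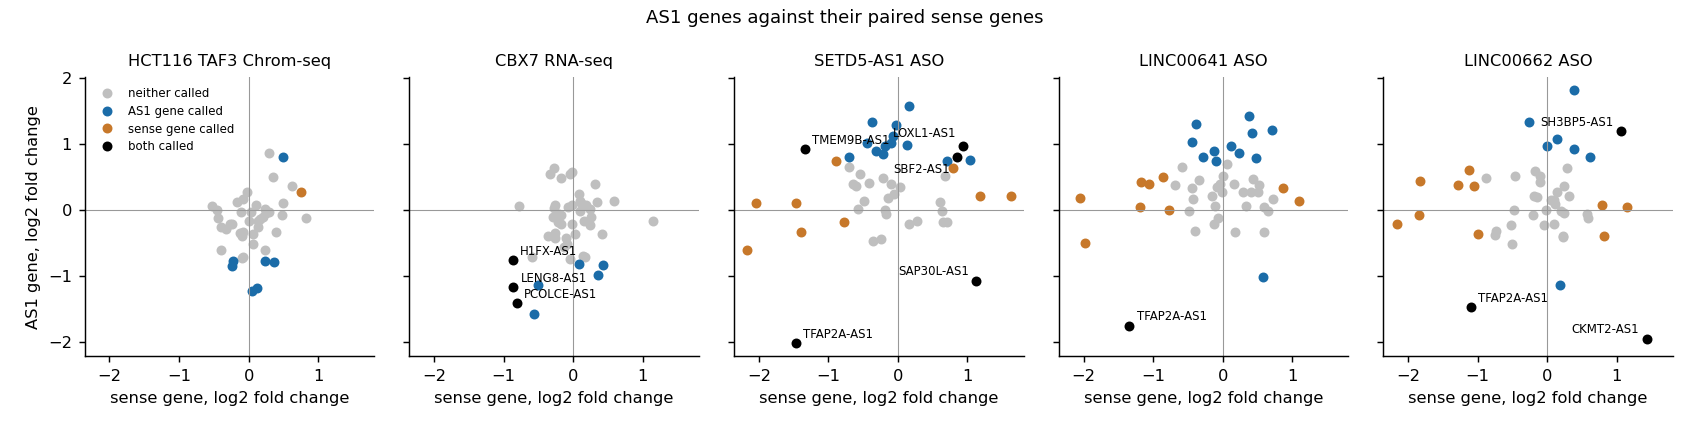
Log2 fold change of each AS1 gene (vertical axis) against that of its paired sense gene (horizontal axis) in 5 comparisons, with colours for which gene of the pair was called and names for pairs in which both were. Blue marks pairs in which only the AS1 gene was called, so most of their sense genes lie within the fold threshold by definition. The 12 pairs called together are black.

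Other genes of the pathways around these RNAs were taken from lists. Nuclear RNA decay factors and RNase H degrade noncoding transcripts and ASO targets. With the SETD5-AS1 ASO, 5 of 20 tested genes of this list were lower and 0 higher, with 3 higher at an unadjusted edgeR p under 0.05 and 0 by DESeq2, and the median log2 fold change was -0.449. The lower genes were 25% of the list, beside 11.5% of all genes tested. The ASOs against LINC00641 and LINC00662 gave 3 lower each, or 15%, near the 11.5% and 13.3% of all genes. RNASEH1, which encodes the RNase that cleaves RNA paired with an ASO, fell by 1.32, 1.34 and 1.27 on the log2 scale with the ASOs against SETD5-AS1, LINC00641 and LINC00662, and the exosome subunit gene EXOSC4 by 0.98, 0.99 and 0.85. RBM7, of the nuclear exosome targeting complex, fell by 2.07, 1.30 and 1.87, with wide standard errors of 0.443, 0.449 and 0.442. EXOSC6 and EXOSC7 went the other way, short of the fold threshold. Their log2 fold changes were 0.74, 0.68 and 0.71 for EXOSC6 and 0.64, 0.40 and 0.52 for EXOSC7. RNASEH2C and EXOSC5 were called with the SETD5-AS1 ASO, where they fell by 1.40 and 0.83. With the ASOs against LINC00641 and LINC00662 their log2 fold changes were also below 0, at -0.45 and -0.63 for RNASEH2C (edgeR adjusted p 0.000101 and 1.25e-08) and at -0.71 and -0.67 for EXOSC5 (4.71e-05 and 2.48e-06), short of the fold threshold. With TAF3 in HCT116, 1 of the 20 was higher, EXOSC4 at 0.76, and with CBX7 edgeR and DESeq2 called 0, with 7 higher and 1 lower at an unadjusted edgeR p under 0.05. Whether these levels bear on the AS1 genes was not tested. Of 13 tested genes of the complexes that write H3K4 methylation, edgeR and DESeq2 called 0 with TAF3, and 6 had an unadjusted edgeR p under 0.05. With CBX7, SETD1B and KMT2D were higher, at 1.73 and 1.04. WDR5, a shared subunit of these complexes, was higher with all 3 ASOs, at 0.98, 0.93 and 1.27, and KMT2D was higher with the LINC00662 ASO, at 0.83. The list as a whole did not rise with the SETD5-AS1 and LINC00641 ASOs. Only 4 of the 13 log2 fold changes were above 0 with each, and the medians were -0.27 and -0.161. CXXC1 and WDR82 had -0.68 each with the SETD5-AS1 ASO, short of the fold threshold. For the LINC00662 ASO, 8 of the 13 were above 0, with a median of 0.144.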

How the data were processed

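RNA-seq and Chrom-seq counts of 23 of the 47 libraries in the series, in 3 tables, were used. The authors deposited raw counts of reads for each gene, which they had not normalized. Per the labels and the methods, reads were trimmed with fastp 0.23.1, aligned to hg19 with HISAT2 2.1.0 and counted with featureCounts 2.0.1 over GENCODE genes, and libraries were made from polyadenylated RNA with a Smart-seq protocol. The length given for each gene equals its span, so intron reads may have been counted. No column belonged to an unlisted sample. The HEK293T Chrom-seq was planned and was not analysed here.

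Samples were grouped by title. The groups of a comparison were fitted alone with edgeR 4.0.16 (quasi-likelihood, TMM, R 4.3.3), with Benjamini-Hochberg adjustment over all genes averaging more than 3 counts per library. The call thresholds, an adjusted p of 0.05 and a log2 fold change of 0.75, follow the study. Contrasts between targeting ASOs used 1 fit over the 4 ASO groups. The procedure was tested on simulated counts. Replicates differed by more than sampling noise, with a chi-square per degree of freedom of 2.478 to 14.4 over 22 pairs, so none was a copy. Same-numbered libraries did not deviate together (r from -0.0376 to 0.0932 over 21 pairs). PCR reads are not independent molecules, so precision set by counts covers counting error only.

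The sense gene is the opposite-strand coding gene that overlaps the member, by name where several do. The text names, in each comparison, up to 8 called members in each direction, by fold change, the 5 with the highest mean count, those with study primers, pairs called together, their sense genes, and members beside the count threshold. TMEM161B-AS1, UBA6-AS1, TRAF3IP2-AS1, the ASO targets and the listed genes were added with values known. The members, lists and tests were chosen with earlier results of these data known. ASO sequences came from the study's oligonucleotide list and were searched, with pysam 0.24.0, as exact runs of at least 16 bases in the sense strand of each gene span in GRCh37 (hg19). Alternatives were DESeq2 1.42.0, its size factors, library size alone, no filter, filterByExpr, the replicate block, a fit over the 4 ASO groups and leaving out each library.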

Additional observations from a re-analysis of the deposited data

Results flagged for a closer look

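Direct contrasts between targeting ASOs, in the fit over the 4 ASO groups, flagged 11 results because the difference itself passed edgeR's quasi-likelihood test and the fold threshold. As given above, such calls among the members lie near the background of all tested genes. In the contrast of LINC00662 ASO minus SETD5-AS1 ASO the values on the log2 scale were -2.56 for CKMT2-AS1, -1.43 for TMCC1-AS1, -1.30 for KIAA1984-AS1, -0.91 for VPS9D1-AS1, -0.87 for PXN-AS1, 0.90 for SH3BP5-AS1 and 1.01 for STX18-AS1. LINC00662 ASO minus LINC00641 ASO gave -2.36 for CKMT2-AS1, -1.01 for TMCC1-AS1 and 0.80 for SH3BP5-AS1. SETD5-AS1 ASO minus LINC00641 ASO gave -0.90 for TRAF3IP2-AS1, which had 10.21, 9.238 and 9.135 CPM with the SETD5-AS1 ASO and 18.24 and 17.4 CPM with the LINC00641 ASO. KIAA1984-AS1 had 75.37, 73.3 and 66.41 CPM with the SETD5-AS1 ASO and 30.78, 27.4 and 28.94 CPM with the LINC00662 ASO, on either side of the control ASO's 51.09, 35.45 and 45.02 CPM. The LINC00641 ASO group has 2 libraries. No explanation was tested.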

How the results depend on the processing

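Counts of called members stayed within 1.5 times the reported ones under DESeq2, its size factors, library size alone, no filter, filterByExpr, the joint fit and the replicate block: with the SETD5-AS1 ASO the number higher ran from 15 (DESeq2) to 21 (library size alone), and with the replicate block the LINC00641 ASO gave 11 higher in place of 12. The block changed the call of none of 47 named values. Leaving out 1 library gave 0 to 1 higher and 4 to 7 lower with TAF3, 1 to 3 and 5 to 10 with CBX7, 15 to 19 and 2 to 2 with the SETD5-AS1 ASO, 9 to 12 and 2 to 2 with the LINC00641 ASO, and 7 to 10 and 3 to 3 with the LINC00662 ASO, with a lone LINC00641 library assumed to vary like the other group. For SETD5-AS1 minus LINC00641 it gave 1 to 2 (2 without LINC00641 ASO replicate 2 or replicate 3), for LINC00662 minus SETD5-AS1 6 to 9, and for LINC00662 minus LINC00641 2 to 4. No higher member was left with TAF3 without TAF3 replicate 3. Of 585 recomputed gene values, 563 kept their call, 22 no longer passed and 0 reversed. H1FX-AS1 with CBX7 came to -0.74 with DESeq2 and -0.73 with library size alone, and FBXL19-AS1 with the LINC00662 ASO, 0.80, came to 0.73 in the joint fit. In SETD5-AS1 minus LINC00641, library size alone gave 285 genes higher and 110 lower in place of 236 and 145. Pairing by name alone gave 11 pairs called together in place of 12. Runs of at least 16 or of 20 bases, added after seeing the data, gave 46.3% and 55.6% in place of 47.0%. Causes were not tested. Members at a few CPM rest on few reads.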
